A study of Mus musculus with 6 samples.

Results

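The genes described here are 9 genes known from cartilage, tendon and other load-bearing connective tissue and followed by name in hearts of aged female mice: Cilp, Cilp2, Chad, Fmod, Adamtsl2, Comp, Thbs4, Scx and Tnmd. All 9 are among the 22298 genes of the deposited table. The filter on low counts left 13708 genes for testing, among them 8 of the 9, all but Tnmd. The 2 groups were hearts of wild-type (WT) female mice, 18 months old, after sham surgery (3 libraries) and after TAC surgery (3 libraries). TAC usually stands for transverse aortic constriction, surgery that narrows the aorta and makes the left ventricle pump against a higher pressure. The sources used here give neither the mouse strain, nor how long after surgery the hearts were taken, nor which part of the heart was used. No label says that each heart sample came from its own animal, and p-values measure only how much these samples varied, which may be technical in part.

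Cilp2, Chad, Fmod and Adamtsl2 were picked because their levels were lower in TAC in these same libraries. Their differences between the groups are therefore a description of how they were picked, and nothing is read from them. The other genes were added as relatives, with results of this comparison also known. The question was whether the lower level of those 4 genes extends to the other 5 and to the wider families they belong to. In the test over all genes none of the other 4 that could be tested was called: Cilp and Comp were lower in each TAC library than in any sham library without passing, and Thbs4 and Scx overlapped between the groups.

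The matrix that surrounds cells in tendon, cartilage and heart valves is built of collagen fibres whose thickness, spacing and links are set by smaller proteins. Fibromodulin (Fmod) and chondroadherin (Chad) are leucine-rich repeat proteins that bind collagen. Cartilage intermediate layer protein (Cilp) and its relative Cilp2 are secreted matrix proteins, and Cilp is known to bind TGF-beta and dampen its signal. Adamtsl2 is a secreted relative of the ADAMTS proteases that lacks the protease domain and binds latent TGF-beta binding protein and fibrillin. Cartilage oligomeric matrix protein (Comp) and thrombospondin 4 (Thbs4) belong to the pentameric thrombospondins, which bind collagen. Scleraxis (Scx) is a transcription factor of tendon and heart valve cells, and tenomodulin (Tnmd) is a membrane protein of mature tendon that depends on it. In the heart these genes are known mainly from fibroblasts and valve cells.

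The genes lie on different chromosomes apart from Cilp2 and Comp, which are 486 kb apart on chromosome 8 of GRCm38. Cilp2 (ENSMUSG00000044006) spans 69880369 to 69887687 on the minus strand and Comp (ENSMUSG00000031849) spans 70373558 to 70382066 on the plus strand. Chad (ENSMUSG00000039084, chromosome 11, 94565047 to 94569127, plus strand) lies within the bounds of Acsf2 on the opposite strand, and Scx (ENSMUSG00000034161, chromosome 15, 76457452 to 76459458, plus strand) within those of Bop1. In neither pair do annotated exons overlap. Cilp (ENSMUSG00000042254) spans 65265180 to 65280605 on chromosome 9, Fmod (ENSMUSG00000041559) 134037254 to 134048277 on chromosome 1, Adamtsl2 (ENSMUSG00000036040) 27079379 to 27108981 on chromosome 2 and Tnmd (ENSMUSG00000031250) 133850980 to 133865577 on chromosome X, all on the plus strand. Thbs4 (ENSMUSG00000021702) spans 92751590 to 92794818 on the minus strand of chromosome 13. The estimated counts of all 9 genes were whole numbers in every library, with none of the fractions that reads divided between genes leave. Such counts are usual, at 88.7% to 89.7% per library. They do not show whether reads of a gene on the opposite strand were counted.

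The sequences just before the start sites of Chad, Fmod and Adamtsl2, 3 of the picked genes, and of Thbs4, whose level was not lower in TAC, are shown because scleraxis, one of the 9, binds E-boxes. They come from RefSeq (GRCm38.p6), run 250 bases 5′ to 3′ on the strand of the gene and end at the base before the start. Capitals mark E-boxes (CANNTG, which reads the same on both strands). The windows are chr11:94564797-94565046 (plus strand) for Chad, chr1:134037004-134037253 (plus strand) for Fmod, chr2:27079129-27079378 (plus strand) for Adamtsl2 and chr13:92794819-92795068 (minus strand) for Thbs4.
Chad: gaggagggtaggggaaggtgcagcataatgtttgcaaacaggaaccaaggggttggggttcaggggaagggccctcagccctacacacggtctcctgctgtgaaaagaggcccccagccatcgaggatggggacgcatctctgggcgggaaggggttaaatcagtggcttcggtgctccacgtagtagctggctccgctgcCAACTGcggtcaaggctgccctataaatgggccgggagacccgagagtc
Fmod: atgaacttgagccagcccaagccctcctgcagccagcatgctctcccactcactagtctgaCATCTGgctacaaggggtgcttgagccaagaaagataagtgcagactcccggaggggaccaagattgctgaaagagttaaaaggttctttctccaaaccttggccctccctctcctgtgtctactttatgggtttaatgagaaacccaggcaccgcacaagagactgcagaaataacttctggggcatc
Adamtsl2: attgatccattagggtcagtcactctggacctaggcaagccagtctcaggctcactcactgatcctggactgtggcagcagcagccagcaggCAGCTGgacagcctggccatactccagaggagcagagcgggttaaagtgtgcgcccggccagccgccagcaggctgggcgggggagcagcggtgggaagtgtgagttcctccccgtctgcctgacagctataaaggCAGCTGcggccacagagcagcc
Thbs4: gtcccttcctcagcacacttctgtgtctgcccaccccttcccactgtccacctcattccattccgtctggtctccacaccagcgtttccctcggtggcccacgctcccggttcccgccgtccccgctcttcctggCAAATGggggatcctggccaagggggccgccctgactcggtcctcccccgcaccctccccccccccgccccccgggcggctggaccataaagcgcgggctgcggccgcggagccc

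Each of these windows holds at least 1 E-box, and Adamtsl2 holds 2, a CAGCTG on both occasions. An E-box is common: 66.2% of the 32851 RefSeq windows of this length hold one. Chad and Adamtsl2 each hold TATAAA, searched on both strands, as do 12.4% of all windows. It starts 28 bases before the start in Chad and 30 bases before it in Adamtsl2. The short core that SMAD proteins bind, CAGAC on either strand, occurs in Fmod, Adamtsl2 and Thbs4 and in 42.2% of all windows, and is not in the window of Chad. ACAAT, the core bound by SOX proteins, is in none of the 4 windows and in 27.7% of all. These matches describe letters, and no binding was measured.

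Total estimated counts ranged from 19747265 to 27549838 per library, and levels are given as CPM, read counts scaled to a common library size by the TMM method, unless FPKM is named, which also divides by transcript length. The TAC libraries differed among themselves more than the sham libraries did: on the first principal component of log2 CPM (54.6% of the variance) sham lay at -37.3 to -31.4, TAC replicate 1 between the groups at 0.65, and TAC replicates 2 and 3 at 48.9 and 53.5. The heart muscle gene Myh6 was abundant in every library, at 11526 to 20273 CPM.

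Per length of transcript, Fmod was the most abundant of the 9 genes in sham hearts and Tnmd the least. Mean deposited FPKM in sham were 20.5 for Fmod, 13.4 for Comp, 11.5 for Cilp, 9.53 for Chad, 9.07 for Adamtsl2, 4.49 for Thbs4, 3.76 for Cilp2, 2.25 for Scx and 0.19 for Tnmd. The ranges over the 3 sham libraries did not overlap between Fmod and Comp, between Adamtsl2 and Thbs4, between Cilp2 and Scx, or between Scx and Tnmd. The other neighbours in this order overlapped. In TAC the order of mean FPKM began with Comp (7.59), Fmod (7.44), Thbs4 (7.16) and Cilp (6.09), and Chad (2.31) had moved from the fourth to the seventh place.

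The spread among sham libraries was small for several of these low-abundance genes. The coefficient of variation over the sham libraries was 3.64% for Scx, 6.50% for Cilp2, 6.85% for Adamtsl2 and 8.34% for Chad, against 17.8% for Cilp, 18.7% for Fmod and 21.0% for Thbs4. Scx had only 45, 66 and 49 counts in the sham libraries, so its small spread over 3 libraries is not read as a trait of the gene. Over the TAC libraries it was 62.7% for Cilp2, 57.6% for Chad and 55.3% for Comp, and 15.1% for Fmod. Fmod was thus the one of the 8 tested genes whose relative spread was no larger in TAC than in sham.

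**Figure D1:**
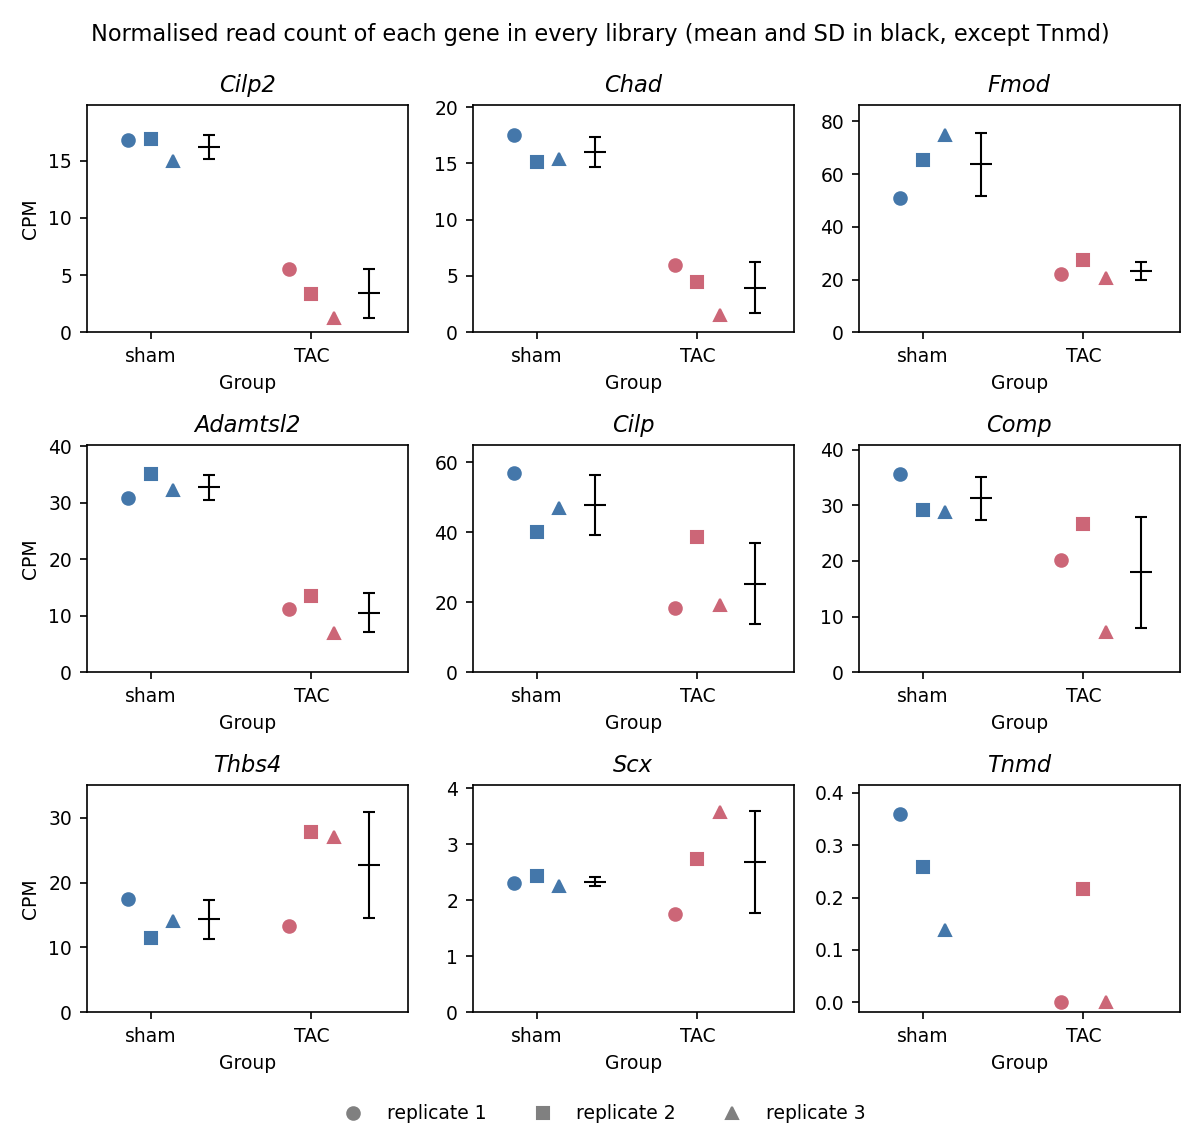
Normalised read count (CPM, vertical axis) of each of the 9 genes in the 3 sham (blue) and 3 TAC (red) libraries, with replicate numbers as marker shapes and mean and SD in black (none for Tnmd, which was too low). Cilp2 lies between 15.0 and 16.9 CPM in sham and between 1.28 and 5.54 CPM in TAC, and Thbs4 and Scx overlap between the groups.

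Of the genes picked for their lower level, Cilp2 had the largest difference. It stood at 16.8, 16.9 and 15.0 CPM in sham replicates 1, 2 and 3 and at 5.54, 3.39 and 1.28 CPM in TAC replicates 1, 2 and 3. These rest on 325 to 459 counts per sham library and 30 to 136 per TAC library. The groups do not overlap, and the TAC libraries differ from one another by more than the sham libraries do. The means were 16.2 ± 1.05 and 3.40 ± 2.13 CPM (SD, n = 3 each), 4.77-fold lower in TAC, with a log2 fold change of -2.25 (SE 0.42).

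Chad, which links collagen to integrins on cells, followed the same order. Its values were 17.6, 15.1 and 15.4 CPM in sham, against 5.98, 4.43 and 1.49 in TAC hearts, a log2 fold change of -2.01 (SE 0.41). The lowest sham library was above the highest TAC library. The ratio of the count of Cilp2 to that of Chad was 0.96, 1.12 and 0.98 in sham and 0.93, 0.76 and 0.86 in TAC. Every TAC ratio was thus below every sham ratio, though by far less than each gene's own level differed. The ratio of Chad to Fmod counts was 0.34, 0.23 and 0.21 in sham and 0.27, 0.16 and 0.073 in TAC, which overlap.

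Fmod, a small proteoglycan that regulates how collagen fibrils assemble, was at 51.1, 65.2 and 74.8 CPM in sham, against 22.2, 27.2 and 20.4 in TAC hearts. Here the TAC libraries lie close together, and TAC replicate 1 lies between the other 2. Its log2 fold change was -1.45 (SE 0.18). Adamtsl2 was at 30.8, 35.2 and 32.3 CPM in sham, against 11.2, 13.6 and 6.89 in TAC hearts, a log2 fold change of -1.63 (SE 0.23). TAC replicate 3 was the lowest for all 4 genes.

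In the edgeR quasi-likelihood test over all genes, 3 of the 8 tested genes were called lower in TAC and 0 higher, at an adjusted p under 0.05. Of all tested genes 0.54% were called lower and 1.12% higher, 1.66% in either direction. In 6 of the 8 every TAC value lay below every sham value, as in 13.1% of all tested genes. Because Cilp2, Fmod and Adamtsl2 were picked from this comparison, nothing is read from these counts. Their edgeR adjusted p-values were 0.0438, 0.0122 and 0.0229, and Chad was just outside at 0.0553. At an unadjusted p under 0.05 the count was 5 lower and 0 higher, the additional genes being Chad and Cilp, beside 9.26% lower and 16.3% higher over all tested genes. The DESeq2 Wald test called these 5 lower and 0 higher, beside 4.08% lower and 7.28% higher of the 14599 genes it gave an adjusted p.

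Cilp, the relative of Cilp2, was not called. It stood at 57.0, 40.0 and 46.9 CPM in sham, against 18.2, 38.8 and 19.1 in TAC hearts. TAC replicates 1 and 3 were low, and TAC replicate 2 lay just under the lowest sham library. The means were 47.9 ± 8.54 and 25.4 ± 11.6 CPM (SD, n = 3 each; log2 fold change -0.92, SE 0.29, with adjusted p = 0.105 in edgeR). Without TAC replicate 2 Cilp passed (log2 fold change -1.39, adjusted p = 0.0457 in edgeR), and it passed in the DESeq2 Wald test (adjusted p = 0.0201). The ratio of Cilp2 to Cilp counts was 0.29, 0.42 and 0.32 in sham and 0.30, 0.087 and 0.067 in TAC. The 2 relatives thus kept their sham ratio in TAC replicate 1 and departed from it in the other TAC libraries.

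Comp and Thbs4, relatives that form mixed pentamers, had log2 fold changes of opposite sign, and neither was called. Comp was at 35.7, 29.2 and 28.8 CPM in sham, against 20.1, 26.7 and 7.15 in TAC hearts (log2 fold change -0.80, SE 0.39, with adjusted p = 0.242 in edgeR). Its groups do not overlap, but TAC replicate 2 was close to sham and TAC replicate 3 held most of the difference. Without TAC replicate 3 the log2 fold change of Comp was -0.43.

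Thbs4 was at 17.5, 11.5 and 14.1 CPM in sham, against 13.2, 27.8 and 27.0 in TAC hearts (log2 fold change 0.66, SE 0.29, with adjusted p = 0.196 in edgeR). TAC replicate 1 fell inside the sham range and the other TAC libraries above it. Without TAC replicate 1 Thbs4 was called higher (log2 fold change 0.92, adjusted p = 0.0161 in edgeR), the only higher call among the 9 genes in any setting. The ratio of Comp to Thbs4 counts was 2.04, 2.55 and 2.04 in sham and 1.52, 0.96 and 0.26 in TAC, which do not overlap.

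**Figure D2:**
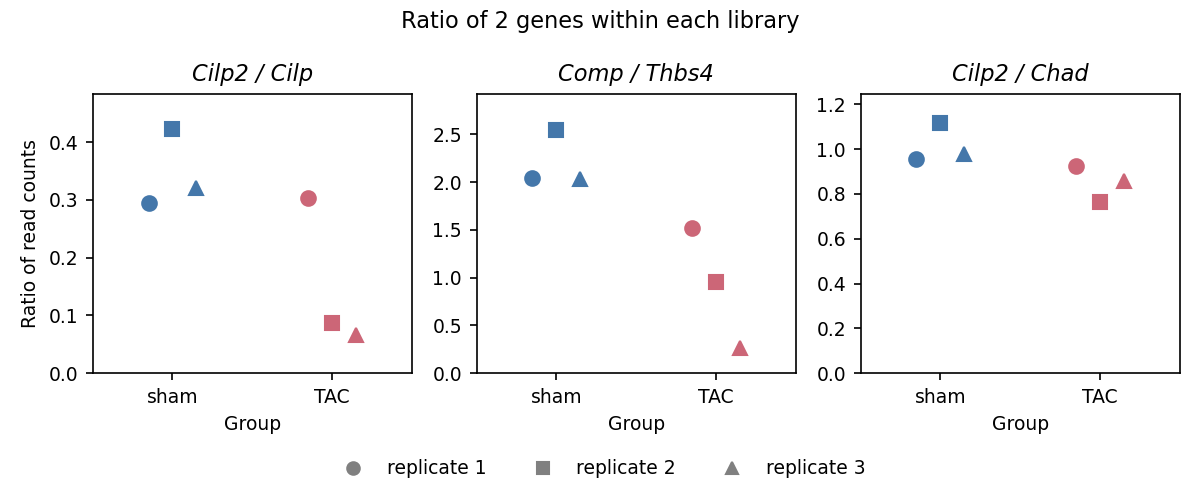
Ratio of the estimated counts of 2 genes within each library (vertical axis, no unit) in the libraries of sham (blue) and TAC (red), with replicate numbers as marker shapes. Cilp2 to Chad lies between 0.96 and 1.12 in sham and between 0.76 and 0.93 in TAC. Comp to Thbs4 lies between 2.04 and 2.55 in sham and between 0.26 and 1.52 in TAC.

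A difference in Scx was not detectable at the spread of the TAC libraries. It was low, at 2.31, 2.43 and 2.26 CPM in sham (45 to 66 counts per library) and 1.75, 2.73 and 3.57 CPM in TAC (43 to 84 counts). The TAC libraries lie on both sides of the sham range (log2 fold change 0.20, SE 0.30, with adjusted p = 0.700 in edgeR). The sign of its fold change was negative (-0.07) without TAC replicate 3. That library was also the highest for Bop1, within whose bounds Scx lies (39.6 CPM, against 18.8 to 21.9 CPM in the other libraries). The protocol does not say that strand was kept, and the part of Bop1 reads in the Scx value was not tested.

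Tnmd, the tendon gene that depends on scleraxis, was near the limit of detection. It had 7, 7 and 3 counts in the sham libraries and 0, 5 and 0 in the TAC libraries, where a count of 0 allows up to 3 counts. At this depth a lower level of Tnmd in TAC could not be shown, and no TAC library was above the sham range. The edgeR fit with no filter gave a log2 fold change of -1.76 (adjusted p = 0.414).

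The spread over the TAC libraries is described by differences from the sham mean, as log2 CPM with a prior count of 2. They ran from -1.53 through -2.23 to -3.58 in TAC replicates 1, 2 and 3 for Cilp2 and from -1.40 through -1.83 to -3.35 for Chad. For Fmod they were -1.50, -1.21 and -1.62 and for Adamtsl2 -1.54, -1.26 and -2.23. For Cilp they were -1.37, -0.29 and -1.31, and for Comp -0.63, -0.22 and -2.11, so that TAC replicate 2 was the nearest to sham for both. For Thbs4 they were -0.10, 0.97 and 0.93, and for Scx -0.40, 0.22 and 0.60.

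**Figure D3:**
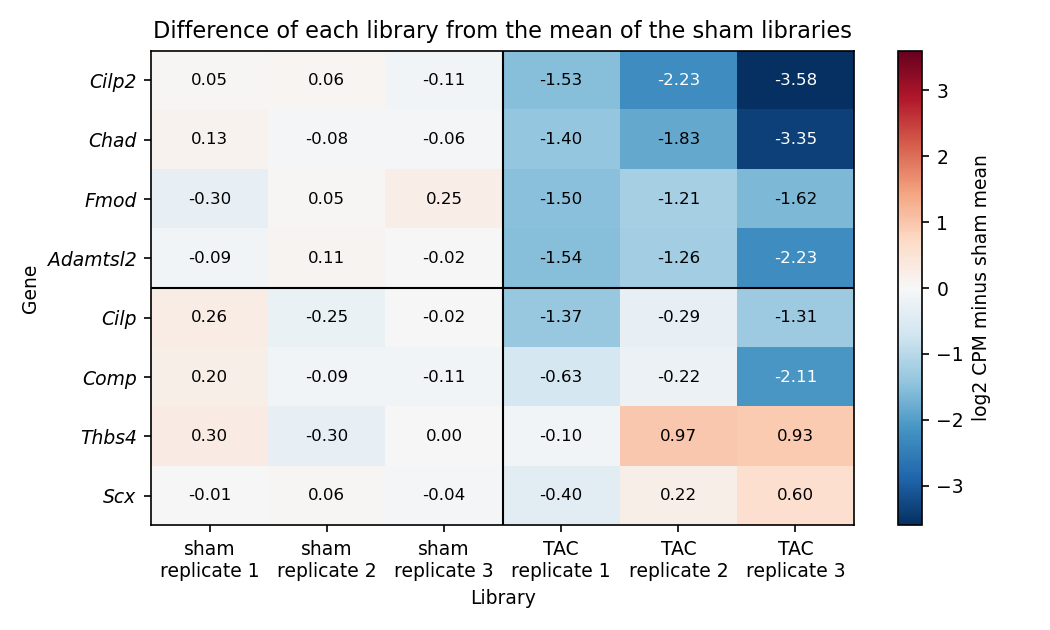
Difference of each library (columns) from the mean of the sham libraries for the 8 tested genes (rows), in log2 CPM with a prior count of 2, blue below and red above. The upper 4 genes, picked for it, are low in all TAC libraries, with Cilp2 at -3.58 in TAC replicate 3, and the lower 4 differ from library to library.

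Cilp2, Chad, Fmod and Adamtsl2 were picked from these same libraries. Their calls with 1 library left out are a description, not a test of whether they are lower in TAC. Leaving out TAC replicate 1, which lay between the groups on the first principal component, gave a call of lower for all 4 picked genes. Their log2 fold changes were then -2.81 for Cilp2, -2.44 for Chad, -1.43 for Fmod and -1.69 for Adamtsl2. Of all 13907 genes tested in that fit, 1837 were called higher and 1392 lower. Without TAC replicate 3 the 4 were also all called. Without TAC replicate 2 the calls were Fmod, Adamtsl2 and Cilp, without sham replicate 1 Fmod alone, and without sham replicate 2 or 3 there were 0 among the 9. Without TAC replicate 2 the adjusted p in edgeR was 0.135 for Cilp2, and without sham replicates 1, 2 and 3 it was 0.152, 0.209 and 0.208. For Adamtsl2 it was 0.106, 0.149 and 0.133 without sham replicates 1, 2 and 3, and for Fmod 0.0999 and 0.0947 without sham replicates 2 and 3. In bulk tissue, fewer cells of a type and less RNA of a gene per cell cannot be told apart.

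In the 3 protein families that hold 5 of the 9 genes, no other member was called by edgeR. Of all tested genes 0.54% were called lower and 1.12% higher. Of 15 tested small leucine-rich proteoglycans and relatives, Fmod was the only one called. The family without the picked Fmod and Chad had 0 of 13 called. At an unadjusted p under 0.05, 2 were lower and 1 higher, beside 9.26% and 16.3% of all tested genes. Of the 13, 10 had a negative log2 fold change, with a median of -0.21 beside 0.03 for all tested genes. Decorin (Dcn), which binds collagen and TGF-beta, had a log2 fold change of -0.19 (SE 0.23). The most negative after Chad and Fmod were osteomodulin (Omd), at 1.78 ± 0.37 CPM in sham, against 0.74 ± 0.21 in TAC hearts, and Prelp, at 186 ± 14.6 and 116 ± 30.2 CPM (SD, n = 3 each). Neither passed (adjusted p = 0.0833 and 0.0907 in edgeR), and both were named after their values were seen.

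Among the 5 thrombospondins none was called in either direction by edgeR, and at an unadjusted p under 0.05 there was also 0. Thbs1, an activator of latent TGF-beta, had 58.2, 47.0 and 61.6 CPM in sham, against 34.9, 66.9 and 184.5 in TAC hearts, so that 1 library carried the difference (log2 fold change 0.78, SE 0.51). Thbs2 had a log2 fold change of -0.17 (SE 0.19) and Thbs3 of 0.28 (SE 0.22). Of 7 ADAMTS-like genes, Adamtsl2 was called lower and 6 were not called. At an unadjusted p under 0.05, 2 of these 6 were lower and 1 higher, beside 9.26% and 16.3% of all tested genes. Papilin (Papln) was at 19.4 ± 3.35 CPM in sham, against 8.20 ± 4.07 in TAC hearts (log2 fold change -1.24, SE 0.33, with adjusted p = 0.0802 in edgeR), and Thsd4, which takes part in microfibril assembly, at 16.0 ± 1.32 and 9.89 ± 1.65 CPM (SD, n = 3 each; -0.70, SE 0.16, with adjusted p = 0.0631 in edgeR). These were also named after their values were seen.

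**Figure D4:**
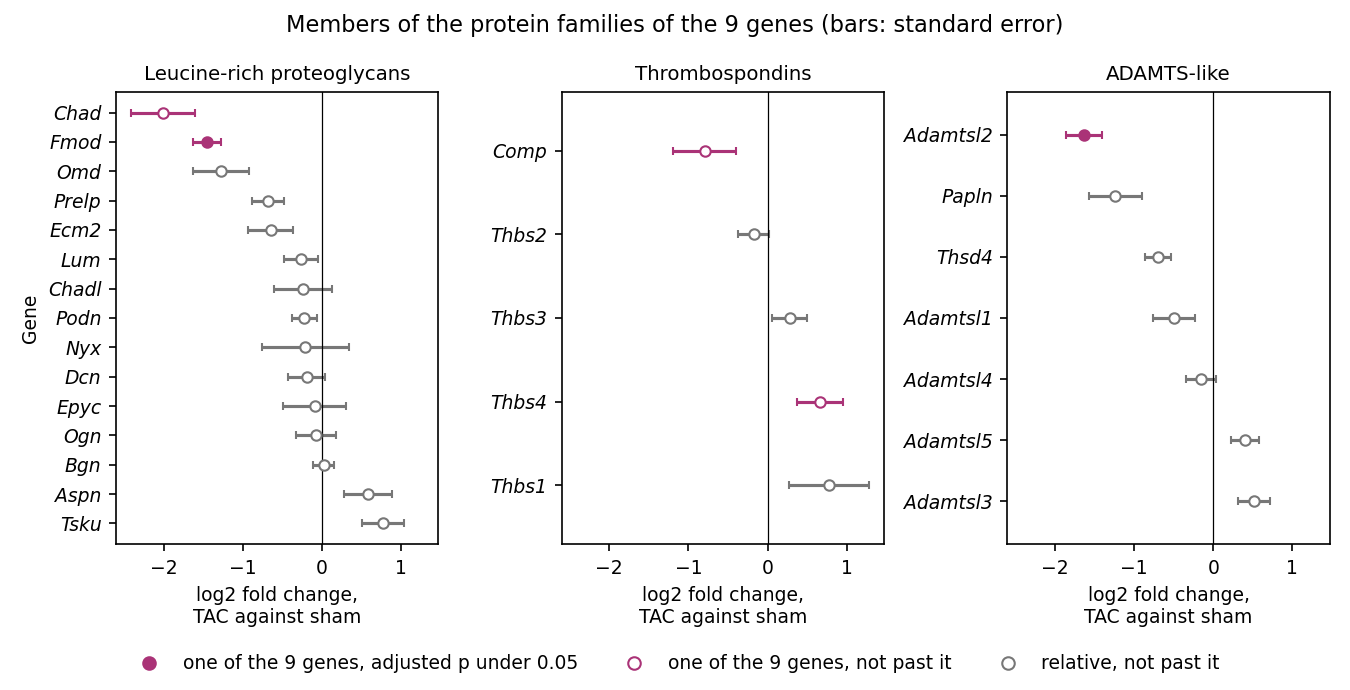
Log2 fold change of TAC against sham (horizontal axis, bars for the standard error) for the tested genes of 3 protein families, purple for those among the 9 genes, filled where the edgeR adjusted p was under 0.05. Chad (-2.01) and Fmod (-1.45) stand at one end of the leucine-rich proteoglycans, and Comp (-0.80) and Thbs4 (0.66) lie on either side of 0.

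Fibrillin microfibrils and the latent TGF-beta binding proteins, which Adamtsl2 is known to bind, had 0 of 20 called, with 8 lower and 1 higher at an unadjusted p under 0.05 in the edgeR test, where all tested genes had 9.26% lower and 16.3% higher. Their median log2 fold change was -0.31. In 10 of the 20 every TAC value lay below every sham value, beside 13.1% of all tested genes. The abundant Ltbp4 was at -0.75 (SE 0.21, with adjusted p = 0.0862 in edgeR) and Fbln2, fibulin 2, at 0.15 (SE 0.16). Ligands, receptors and targets of TGF-beta had 0 of 21 called, with 2 lower and 6 higher at an unadjusted p under 0.05, and a median of 0.23. The endothelial co-receptor Eng and the receptor Tgfbr2, the pair with the highest levels, stood at 0.28 (SE 0.13) and 0.26 (SE 0.12) on the log2 scale.

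Many genes of the cartilage and tendon lists are active in heart as well, and 22 of 32 and 26 of 29 passed the filter on low counts. Several that define cartilage or tendon cells were at or near 0, so the 9 genes are named here for the tissues they are known from. The defining collagen of cartilage, Col2a1, had 14 counts in all 6 libraries together, and the cartilage genes Matn1, Matn3 and Snorc had 0 counts in every library, where a count of 0 allows up to 3. The tendon factor Mkx had 31 counts in all. Sox9, the master regulator of cartilage that is also active in valves, was at 3.14 to 5.03 CPM in sham, against 3.18 to 6.64 in TAC hearts.

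Of 22 tested cartilage genes, 1 was called lower, Cilp2, and 2 were called higher, beside 0.54% and 1.12% of all tested genes. Without the 4 that are among the 9 genes, 18 were left. At an unadjusted p under 0.05, 4 of these were lower and 3 higher, beside 9.26% and 16.3% of all tested genes. In 7 of the 18 every TAC value lay below every sham value, beside 13.1% of all tested genes. Prg4, which encodes the joint lubricant lubricin, rose from 52.8, 37.0 and 49.9 CPM in sham to 117.7, 223.6 and 482.2 CPM after TAC (log2 fold change 2.56, SE 0.46, with adjusted p = 0.0419 in edgeR). All 3 TAC libraries were above sham, in the opposite direction to Cilp2. Runx3, a transcription factor of cartilage that T cells also use, was at 0.56, 0.85 and 1.06 CPM in sham against 2.24, 3.26 and 3.96 in TAC and rose by 1.92 on the log2 scale (SE 0.35, with adjusted p = 0.0436 in edgeR). The calls of both were lost without any given sham library (adjusted p = 0.151 to 0.225 in edgeR) and without TAC replicate 2 (0.106 and 0.127), and that of Runx3 without TAC replicate 3 (0.0810). The tendon list had 1 of 26 called lower, Fmod, and 0 higher, beside 0.54% and 1.12% of all tested genes. Its median log2 fold change was -0.08. Without its 3 tested members of the 9 genes it had 3 higher and 3 lower of 23 at an unadjusted p under 0.05.

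With the 9 genes left out, these 7 lists held 100 tested genes. Of these, the edgeR test called 0 lower and 2 higher, beside 0.54% and 1.12% of all tested genes. At an unadjusted p under 0.05, 21 were lower and 15 higher, beside 9.26% and 16.3% of all tested genes. DESeq2 called 14 lower and 8 higher, beside 4.08% and 7.28% of its genes. Because the lists were drawn up with earlier results known, nothing particular to them is read from these shares. In 27 of the 100 every TAC value lay below every sham value, beside 13.1% of all tested genes. Of the 100, 54 had a negative log2 fold change, and their median was -0.07.

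**Figure D5:**
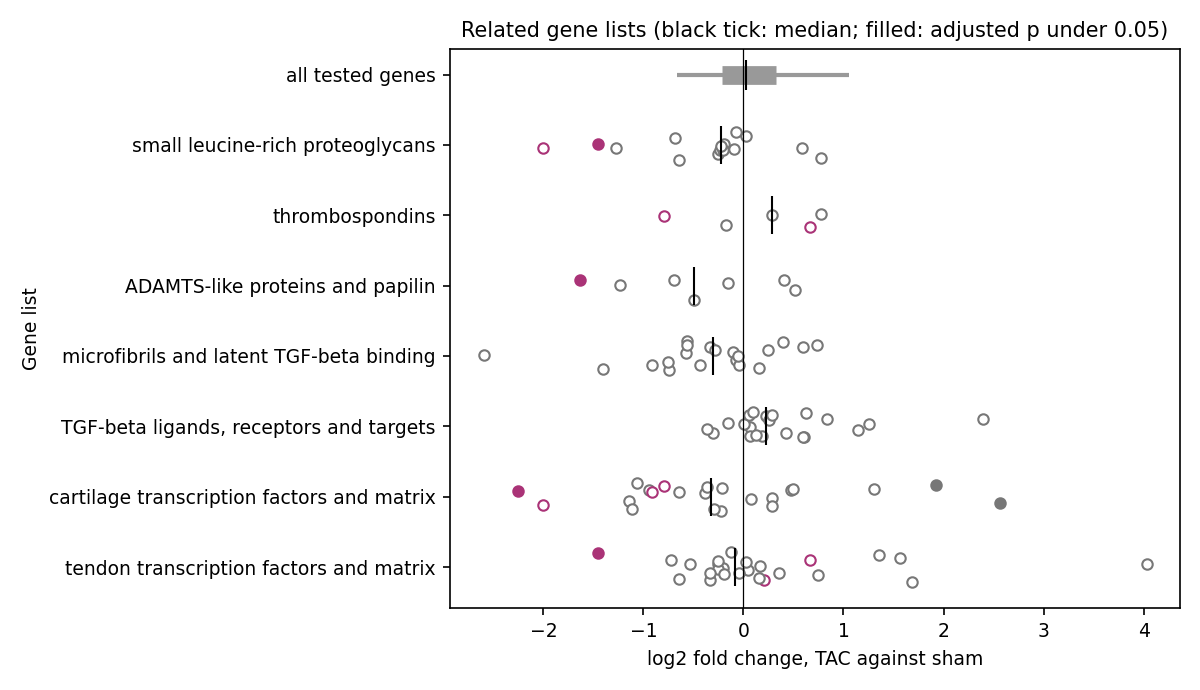
Log2 fold change of TAC against sham (horizontal axis) of each tested gene in the 7 related lists (circles, purple for the 9 genes, filled where the edgeR adjusted p was under 0.05), with the list median as a black tick and, for all tested genes, the middle 50% (thick) and 90% (thin) as grey bars. The list medians lie between -0.50 and 0.28, and Prg4 and Runx3 are the filled circles on the right.

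Markers of cell types that could hold these genes were summed in each library. Of 20 fibroblast markers 0 were called by edgeR. At an unadjusted p under 0.05, 5 were lower and 2 higher, beside 9.26% and 16.3% of all tested genes. Of the 20 markers, 16 had a negative log2 fold change (median -0.25). Their sum ran from 6178 to 7003 CPM in sham, against 4220 to 4930 in TAC hearts, without overlap. Gelsolin (Gsn), the most abundant of them, carried most of that difference: without it the sum was 3605 to 4213 CPM in sham and 3211 to 3581 CPM after TAC. It had a log2 fold change of -1.12 (SE 0.29, with adjusted p = 0.0733 in edgeR). Activated fibroblast markers, 3 of whose 19 genes are also among the 9, had a median of 0.55. One of them was called lower, beside 0.54% of all tested genes. It was the collagen-binding protein gene Sparc (-1.04, SE 0.18, with adjusted p = 0.0391 in edgeR). Sparc lost this call in both limma tests on FPKM, with the replicate block, and without any given sham library. At an unadjusted p under 0.05 in the fit of all libraries, the list had 7 higher and 3 lower, beside 16.3% and 9.26% of all tested genes. The 7 include the tissue inhibitor Timp1 (log2 fold change 3.48, SE 0.91) and tenascin C (Tnc, 4.03, SE 1.16). Both were named after their values were seen, and neither passed the threshold (adjusted p = 0.0769 and 0.0882 in edgeR). TAC replicate 3 carried most of both differences. Timp1 was at 6.05 to 9.65 CPM in sham and at 22.4, 18.9 and 204.6 in TAC. Tnc was at 2.43 to 5.18 CPM in sham and at 10.1, 8.29 and 162.4 in TAC. The summed level of the activated fibroblast markers was 1562 to 1864 CPM in sham, against 1044 to 2139 in TAC hearts.

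The full list of valve interstitial cell markers shares 5 genes with the 9. Of its 18 tested markers Fmod was called lower and Prg4 higher, beside 0.54% and 1.12% of all tested genes. At an unadjusted p under 0.05 there were 4 lower and 4 higher, or 2 lower and 4 higher without the shared genes. By that rule 9.26% of all tested genes were lower and 16.3% higher. The list summed to 1116 to 1148 CPM in sham, against 1140 to 1410 in TAC hearts. Without the shared genes its median log2 fold change was 0.22. The defining valve and cartilage markers Acan and Hapln1 were at or under 1.74 CPM in every library.

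Markers of other tissues in and near the heart were followed in the same way. Summed epicardial markers were at 110 to 350 CPM in sham, against 157 to 270 in TAC hearts, with Upk3b at -0.94 (SE 0.45) and Gpm6a at -0.04 (SE 0.25) on the log2 scale. Atrial markers summed to 3748 to 5511 and 3906 to 5178 CPM (Nppa 0.38, SE 0.21, and Pam -0.06, SE 0.18), and Schwann cell markers to 67.4 to 78.2 and 61.5 to 94.6 CPM (Scn7a 0.21, SE 0.21, and Cnp 0.07, SE 0.15). Smooth muscle markers summed to 5696 to 6061 and 5446 to 6283 CPM, most of it from Pln (-0.22, SE 0.24) and Des (0.44, SE 0.23), which heart muscle also expresses. The other 9 summed to 818 to 952 CPM in sham and 633 to 719 CPM after TAC. In 6 of the 9 every TAC value lay below every sham value, beside 13.1% of all tested genes. The 6 include Acta2 (-0.60), Myh11 (-0.53) and Lmod1 (-0.71), named after their values were seen. Ventricular muscle markers summed to 73535 to 76119 CPM in sham, against 49337 to 74832 in TAC hearts (Myh6 -0.47, SE 0.17, and Atp2a2 -0.50, SE 0.22). Adipocyte markers summed to 946 to 1646 and 663 to 1261 CPM (Fabp4 0.09, SE 0.18, and Plin4 -0.38, SE 0.24). None of these markers was called by edgeR, and at an unadjusted p under 0.05 there were 1 higher and 0 lower of 14 epicardial, 0 and 2 of 12 atrial, 0 and 6 of 11 smooth muscle, 1 and 2 of 10 Schwann cell, 0 and 2 of 12 ventricular and 0 and 0 of 10 adipocyte markers. By that rule 16.3% of all tested genes were higher and 9.26% lower. Of 5 tested skeletal muscle markers, Atp2a1 was called lower (-1.80, SE 0.31, with adjusted p = 0.0379 in edgeR), beside 0.54% of all tested genes. On that list 7 of the 12 were too low to test. The part of fibroblast, valve or smooth muscle cell number in the results on the 9 genes was not tested.

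The genes whose profile over the 6 libraries was most like the mean standardized profile of Cilp2, Chad, Fmod and Adamtsl2 were Dag1 (Pearson r = 0.998), 1110032A03Rik (0.997), Swsap1 (0.996), Smtn (0.994) and Ap5s1 (0.994). The 6 points share the 2 groups, so this mostly ranks genes by how evenly they separate them. The likeness is one of shape and not of size: Dag1, which encodes dystroglycan, went from 575 to 427 CPM on average, a log2 fold change of -0.43 (SE 0.13). By the same measure Comp had r = 0.846, Cilp 0.816, Scx -0.482 and Thbs4 -0.706.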

How the data were processed

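Poly(A)-selected RNA from 6 heart samples, 3 per group, was sequenced on an Illumina NovaSeq, per the labels' protocols. The deposited table holds, per the file headers, estimated counts and FPKM (the authors' values per transcript length and depth) of each gene. The submitters' processing notes name GRCm38, HISAT2, DESeq2, StringTie 1.3.1 and Bowtie2 2.2.8, without saying what each was used for. Symbols came from a GRCm38 annotation (GENCODE M21), which matched 22255 of the 22298 identifiers. Depth was 19747265 to 27549838 estimated counts per library.

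Counts were rounded and tested over all genes with edgeR 4.0.16 in R 4.3.3 (genes kept by filterByExpr at a minimum count of 10, TMM factors, quasi-likelihood F test, two-sided, no covariate, Benjamini-Hochberg adjustment, threshold 0.05). The standard error is the size of the log2 fold change divided by the square root of F. The fit was tested on simulated data with 200 genes changed by 2 on the log2 scale and a common dispersion for all genes and both groups. It recovered 99% of the changed genes, and 6.16% of its calls were false. The larger spread of the real TAC libraries was not simulated, so these shares need not hold here. Alternatives were DESeq2 size factors, the Wald test of DESeq2 1.42.0, limma 3.58.1 on log2 FPKM with a pseudocount of 1 or 0.1 (genes with FPKM of at least 1 in 3 libraries), no filter, a replicate block, and each library left out.

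The 9 genes and all lists were chosen with earlier results of these data known. From each list, up to 4 called genes with the smallest adjusted p are named, or the 2 most abundant where none was called, and 5 genes by likeness of profile. Other genes were named after their values were seen. No list was tested as a set.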

Additional observations from a re-analysis of the deposited data

How the results depend on the processing

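Cilp2, Chad, Fmod and Adamtsl2 had negative log2 fold changes in every setting run, a direction that the way they were picked had already set. Of the 9 genes, 5 were lower in the DESeq2 Wald test, beside 4.08% of all its genes. When 1 library was left out, 0 to 4 of the 9 were lower and 0 to 1 higher. Over all genes those fits called 8 to 1392 lower and 4 to 1837 higher. Cilp2 lost its call with the replicate block (edgeR adjusted p = 0.0580), without any given sham library and without TAC replicate 2. Among the 100 related genes, 0 to 15 were lower and 0 to 14 higher with 1 library left out, both highest without TAC replicate 1. That fit called 1392 lower and 1837 higher of all 13907 genes it tested. DESeq2 size factors called 1 lower. The DESeq2 Wald test called 14 lower and 8 higher, beside 4.08% and 7.28% of all its genes. The limma test called 0 higher with either pseudocount, the fit with no filter 1 and the replicate block 0.

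Over all genes 153 were called higher and 74 lower. The counts were 1063 higher and 595 lower in the DESeq2 Wald test, 59 higher with a pseudocount of 1 and 64 with 0.1, and 4 to 1837 higher and 8 to 1392 lower with 1 library left out. With the replicate block they were 48 higher and 26 lower. No label states a pairing, and none by replicate number was visible. Same-numbered libraries deviated from their group means with correlations of 0.01, -0.11 and -0.02, and differently numbered ones with -0.06 to 0.11. With 3 libraries per group this cannot exclude a pairing. Fits with fewer libraries also have fewer residual degrees of freedom.

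Genes not called changed sign in some settings. With 1 library left out the log2 fold change ranged from -0.0726 to 0.417 for Scx, -0.140 to 1.15 for Thbs1, -0.0208 to 0.258 for Fbln2, -0.447 to 0.0209 for Dcn, -0.317 to 0.137 for Gpm6a, -0.163 to 0.0654 for Pam, -0.462 to 0.00465 for Pln, -0.0630 to 0.391 for Scn7a, -0.0897 to 0.127 for Cnp and -0.0541 to 0.223 for Fabp4. Gpm6a was at 0.0218 with the replicate block, and at 0.0173 and 0.0254 in the FPKM tests with a pseudocount of 1 and 0.1. The cause was not tested. Depth limits Tnmd, with at most 7 counts per library.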
